A study of Mus musculus with 12 samples.

Results

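Caspases are cysteine proteases that cut other proteins after an aspartate, and they lie dormant in the cell until they are cleaved or brought together. In apoptosis the initiators act first: Casp8 is engaged by ligand-bound death receptors, Casp9 by cytochrome c released from mitochondria and Casp2 by several forms of cell stress. The initiators then lead to cleavage of executioners such as Casp6, which take the cell apart. Casp4, called Casp11 in older mouse literature, is not an apoptotic initiator or executioner but an inflammatory caspase that senses bacterial lipopolysaccharide in the cytosol and triggers pyroptosis. Microglia, the resident macrophages of the central nervous system (CNS), live long and turn over slowly, and caspases have also been described in their activation without cell death.

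The genes described are caspases of the measured panel, chosen by their symbol (Casp and a number) and without the inflammatory Casp1. They are Casp2, Casp4, Casp6, Casp8 and Casp9, 5 of the 770 genes. Casp2, Casp6, Casp8 and Casp9 are textbook apoptotic caspases, and Casp4 entered through its symbol alone. The rule uses symbols and no measured value.

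RNA was counted on the NanoString nCounter with its Neuroinflammation panel, which counts single RNA molecules with colour-coded probes and no amplification. The 12 samples came from microglia of mice labelled as untreated C57B6, fixed and permeabilized before sorting, and each sample held the CNS of 1 male and 1 female. Aged mice were over 80 weeks old, and their microglia were separated by phosphorylation of ERK1/2 at Thr202 and Tyr204 into P-ERK1/2 High cells (here High, n = 4, samples 2, 5, 7 and 8) and P-ERK1/2 Low cells (here Low, n = 4, samples 3, 6, 9 and 12). Adult mice were 12 to 20 weeks old and their microglia were not separated by ERK1/2 (samples 1, 4, 10 and 11), with sample 11 marked by the authors as excluded for poor quality, so that n = 3. The gate was YFP+, CD45 Intermediate and Ly6G-, and in the methods YFP marks cells with an active Cx3cr1 promoter in Cx3cr1-CreERT2 mice, a line for which they describe tamoxifen. The labels do not give that allele or a tamoxifen treatment for these samples. The authors' figure legend for these data does give tamoxifen, much longer before sampling in aged than in adult mice. That interval thus differs along with age. Pooling of mice means that a sample is an average of a pair, and fewer cells of a kind and less RNA per cell cannot be told apart in it.

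Each deposited value is a count multiplied by 1 factor per sample that brings 13 housekeeping genes to a common level. Dividing by that factor gave back the counts, which summed over all genes to 650965 to 1539936 in High, 123798 to 157209 in Low and, for the 3 adult samples retained, 137980 to 326575. One count is therefore worth 0.715 to 1.27 units in High and 2.68 to 4.10 units in Low. The mean plus 2 SD of the 8 negative control probes, which match no mouse RNA, stood at 26.1 to 39.5 units in High, 69.2 to 117 in Low and 37.9 to 95.1 in kept adult samples. Of the 12 microglial markers, 11 reached 40 counts in every High sample, 8 in every adult sample and 5 in every Low sample, and Tmem119, P2ry12, Sall1, Gpr34 and Slc2a5 reached it in no Low sample. Their summed values overlapped at the deposited factors, at 11372 to 17933 in High, 11354 to 12870 in Low and 11170 to 12327 in adult. No T and NK or B cell marker reached 40 counts in any Low or kept adult sample. Of 6 astrocyte markers 4 reached 40 counts in every High sample and 1 in every Low sample, and their summed value was 1412 to 2143 in High, 580.5 to 833 in Low and 467 to 677 in adult. Of 6 endothelial markers 4 did so in High and 0 in Low, with sums of 622 to 1257, 207 to 312 and 286.5 to 413. The 10 T and NK cell markers, 1 of which did so in High, summed to 331 to 1157, 182 to 264 and 171 to 329. The 4 neutrophil markers were highest in adult, at 626.5 to 973.5, beside 146 to 515 in High and 295 to 444 in Low, and Ly6g reached 40 counts in no kept sample. Neuron markers (10) summed to 366 to 609 in High, 267.5 to 340.1 in Low and 267 to 383 in adult, B cell markers (5) to 174 to 371, 126 to 182 and 73.4 to 181.5, border macrophage and monocyte markers (5) to 208 to 264, 152.5 to 210.3 and 153 to 215.5, and oligodendrocyte markers (10) to 331 to 475, 414 to 543 and 360 to 613. These sums include background, which was not subtracted, and a background count is worth more units in Low than in High. No neuron, endothelial, T and NK, B cell or border macrophage marker reached 40 counts in Low. The Low sums of those cells are therefore not measured levels. The part of these other cells in the caspase values was not tested.

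The promoters of 3 caspases are shown because their genes went different ways on the deposited scale: Casp8 and Casp9 had nearly the same profile over the samples, and Casp6 was highest in the group where they were lowest. RefSeq entries (GRCm38.p6) were found for all 5 caspases, and each sequence is the 250 bases before an annotated start on the + strand, which need not be the start of the gene. Capitals mark the GC box GGGCGG on either strand. The windows are chr1:58802252-58802501 for Casp8, chr4:141793362-141793611 for Casp9 and chr3:129901165-129901414 for Casp6.
Casp8: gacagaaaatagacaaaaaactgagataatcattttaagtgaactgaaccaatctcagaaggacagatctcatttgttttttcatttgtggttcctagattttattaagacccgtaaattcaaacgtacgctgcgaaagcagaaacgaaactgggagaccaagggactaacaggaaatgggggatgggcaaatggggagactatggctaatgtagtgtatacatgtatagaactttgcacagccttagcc
Casp9: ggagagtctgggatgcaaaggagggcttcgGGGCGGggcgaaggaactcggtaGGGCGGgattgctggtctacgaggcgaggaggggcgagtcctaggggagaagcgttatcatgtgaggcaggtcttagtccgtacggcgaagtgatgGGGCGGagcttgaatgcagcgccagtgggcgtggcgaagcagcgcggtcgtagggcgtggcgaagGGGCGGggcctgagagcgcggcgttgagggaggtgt
Casp6: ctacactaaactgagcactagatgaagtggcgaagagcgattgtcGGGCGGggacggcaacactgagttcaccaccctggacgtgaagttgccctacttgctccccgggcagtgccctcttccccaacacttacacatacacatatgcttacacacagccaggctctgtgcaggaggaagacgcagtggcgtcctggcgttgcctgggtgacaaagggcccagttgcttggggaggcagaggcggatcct
Casp9 holds 4 GC boxes in this window, Casp6 and Casp2 hold 1 each, and Casp8 and Casp4 hold 0, where 32.7% of the 32851 promoters in the table hold at least 1. The bases are 66.0% G or C in Casp9, 58.4% in Casp6 and 39.6% in Casp8, against a median of 52.4% over all promoters. The window of Casp8 lies within the span of its gene (chr1:58795233-58847503), while those of Casp9 (chr4:141793612-141815978) and Casp6 (chr3:129901415-129914112) end at the base before it. The motifs of transcription factors that ERK signalling is known to act on, CCGGAAG (ETS), TGANTCA (AP-1) and TGACGTCA (CRE), searched on both strands, were found in none of the 5 caspase promoters. They occur in 6.91%, 6.75% and 1.55% of all promoters. None of the 4 motifs is contained in another, and a match or its absence says nothing of binding. The genes of Casp2 and Casp4 lie at chr6:42264902-42282508 and chr9:5308849-5336791. The window of Casp2, chr6:42264735-42264984, ends inside its gene. Casp4 has the windows chr9:5308599-5308848 and chr9:5308610-5308859, of which the latter ends inside its gene.

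P-ERK1/2 High microglia held less Casp8, Casp9 and Casp4 than P-ERK1/2 Low microglia on the deposited scale, while Casp6 read higher and Casp2 read lower by less than 2-fold. With limma, at an unadjusted p below 0.01 and more than 2-fold, Casp4, Casp8 and Casp9 were called lower, 3 of 5 caspases, and 0 of 5 were called higher, where 9.61% of all 770 genes were called lower and 28.2% higher. An unadjusted p under 0.05 was found for 5 of 5, beside 58.6% of all genes, and limma-voom on the recovered counts also called 3 lower and 0 higher. The groups did not overlap in 4 of the 5 caspases, beside 49.4% of all genes. The median log2 fold change was -1.23 over the 5 caspases and 0.26 over all genes. None of these directions held under all 6 scalings between samples: those of Casp2, Casp4, Casp8 and Casp9 turned when counts were left unscaled, and that of Casp6 under scaling to the total.

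**Figure D1:**
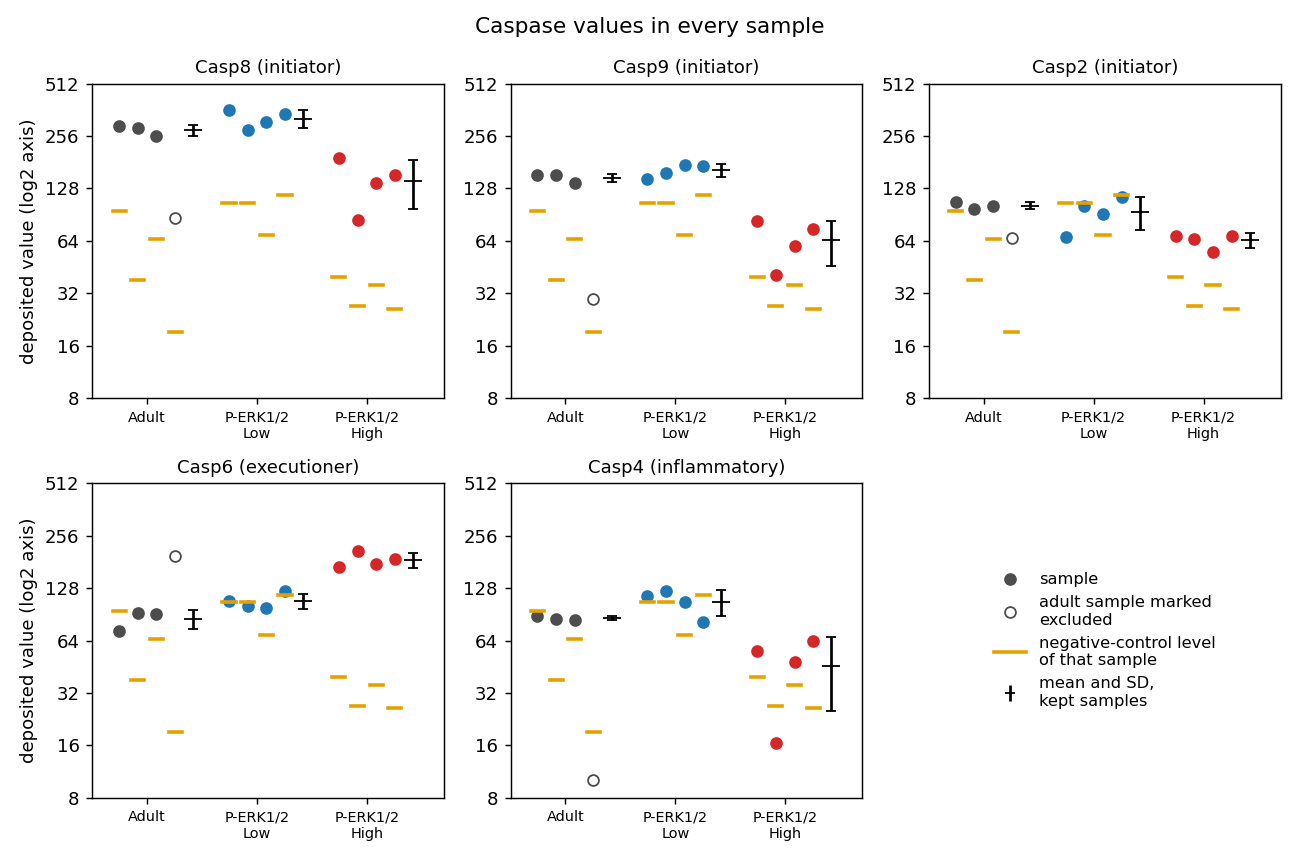
Deposited value (log2 axis) of each of the 5 caspases in every sample, with the mean and SD of the kept samples (n = 3 adult, 4 and 4) and the negative-control level of each sample as a short bar; the open point is the excluded adult sample 11. P-ERK1/2 High lies above the other groups for Casp6 and below them for Casp8, Casp9 and Casp4, and the negative-control bars are highest in P-ERK1/2 Low, where they reach 117 units; without scaling between samples the order of P-ERK1/2 High and Low turns for Casp8, Casp9 and Casp4, and scaling to the total turns it for Casp6.

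Among the initiators, Casp8, the protease of death-receptor signalling, read 192, 84.3, 138 and 153 in High samples 2, 5, 7 and 8. In Low samples 3, 6, 9 and 12 it read 363, 277, 308 and 340.5, and in adult samples 1, 4 and 10 it read 293, 284 and 254. Every High sample lay below every other kept sample, sample 5 the furthest, while Low and adult overlapped. Sample 5 also had the largest total, 1539936 counts, beside 650965 to 817268 in the other High samples. The part of library total in its values was not tested. Against Low, High differed by -1.23 on the log2 scale (SE 0.27, adjusted p = 0.0024, limma with Benjamini-Hochberg adjustment over all genes), and against adult -1.02 (SE 0.30, adjusted p = 0.017). Behind these values stood 118 to 158 counts in High, 79 to 115 in Low and 103 to 244 in adult, all above the negative controls. Without sample 5 the log2 fold change against Low was -1.0 and just missed the fold limit.

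Casp9, which is activated on the apoptosome after mitochondrial damage, followed the same pattern. It read 82.8, 40.7, 59.5 and 74.8 in High, 146, 158, 174 and 172 in Low and 152, 153 and 138 in adult, in the same sample order. Again sample 5 was the lowest, and High was apart from both other groups, which overlapped each other. On the log2 scale High differed by -1.37 from Low (SE 0.25, adjusted p = 0.00087) and by -1.23 from adult (SE 0.28, adjusted p = 0.0052). In High against Low, Casp9 ranked 22nd of 770 genes by decrease. The counts were 53 to 68 in High and 42 to 65 in Low, so that the raw counts of Casp9 were alike in libraries whose totals differed several-fold. After subtraction of the negative-control level the log2 difference from Low was -0.99 and was not called.

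Casp2, a stress-linked initiator, read 68.2, 65.8, 55.0 and 68.4 in High, 67.8, 102, 91.0 and 115 in Low and 107, 97.8 and 101 in adult. High overlapped Low through sample 3 and lay below all adult samples. Its log2 fold change was -0.52 against Low (SE 0.23, adjusted p = 0.074) and -0.66 against adult (SE 0.23, adjusted p = 0.033), neither of which met the fold limit. Its counts in Low were 20 to 34, with 0 of 4 samples at 40 counts and 1 of 4 above the negative controls, so its level there is a bound rather than a measurement. Subtracting the negative-control level from the counts turned the difference from Low to 2.21 (adjusted p = 0.0079, called higher), a size set by the remainder of 1 count given to the 3 of 4 Low samples not above that level, and on unscaled counts it was 1.13 (adjusted p = 0.0055, called higher).

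Casp6, an executioner known for cutting nuclear lamins, read 169, 209, 175 and 188 in High, 108, 102, 99.0 and 123 in Low and 72.6, 92.0 and 91.4 in adult. Every High sample was above every Low sample, and every Low sample above every adult one, on the deposited scale. The order of Low and adult turned under total scaling (-0.04), on unscaled counts (-0.50) and after subtraction of the negative-control level (-1.06). Casp6 differed by 1.11 on the log2 scale against adult (SE 0.23, adjusted p = 0.0032), which was called, and 0.77 against Low (SE 0.20, adjusted p = 0.0065), which stayed inside the fold limit. It turned to -0.29 and -0.25 when samples were scaled to their total over all genes. With 0 of 4 Low samples at 40 counts (29 to 37), the bound was at least 1.37-fold higher in High than in Low at the deposited factors. In adult 1 of 3 samples reached 40 counts (32 to 79) and 2 of 3 exceeded the negative controls. The call against adult rests on those low counts. After subtraction of the negative-control level the log2 difference from Low was 4.24 and was called (adjusted p = 0.00041), a size that depends on near-zero remainders in Low, set to at least 1 count.

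The inflammatory Casp4 read 56.0, 16.4, 48.3 and 63.4 in High, 115, 123, 107 and 82.0 in Low and 88.5, 85.0 and 84.0 in adult. High lay below both groups, and sample 5 lay far below the other High samples. The fitted log2 difference was -1.34 against Low (SE 0.37, adjusted p = 0.0097) and -1.04 against adult (SE 0.41, adjusted p = 0.058, not called). Without sample 5 these were -0.91 and -0.62, and Casp4 lost its call against Low, as it did without Low sample 3 or 6. Only 1 of 4 Low samples (20 to 40) and 1 of 3 adult samples (34 to 73) reached 40 counts. After subtraction of the negative-control level the difference from Low was -0.29.

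**Figure D2:**
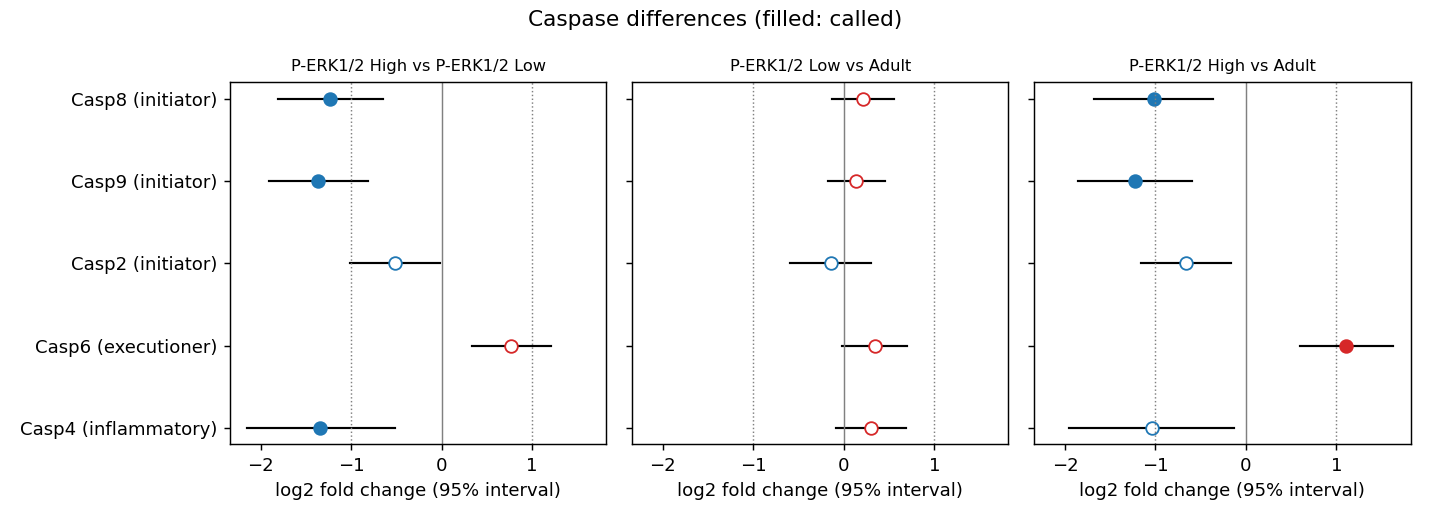
Log2 fold change with its 95% interval for each caspase in the 3 comparisons, where filled points were called (limma, unadjusted p below 0.01 and more than 2-fold). Casp8 and Casp9 lie below 0 and Casp6 above it in both panels with P-ERK1/2 High, and no point of the panel of P-ERK1/2 Low against adult is filled; on unscaled counts Casp8 and Casp9 read 0.44 and 0.29 against P-ERK1/2 Low, and under total scaling Casp6 read -0.25 against P-ERK1/2 Low and -0.29 against adult.

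Aged P-ERK1/2 Low microglia were compared with adult microglia to set aged cells low in ERK1/2 phosphorylation beside adult cells, which were not separated by it. With limma 0 of the 5 caspases were called, beside 8.05% of all genes called higher and 2.73% lower, and 0 of 5 had an unadjusted p under 0.05, beside 39.2% of all genes. limma-voom on the recovered counts and a gene-by-gene test with unequal variances called 0 as well. The groups were apart for Casp6 (0.34 on the log2 scale, SE 0.15, 95% interval -0.02 to 0.70, adjusted p = 0.14), 1 of 5 caspases beside 36.5% of all genes. The others read 0.30 (Casp4), 0.21 (Casp8), 0.13 (Casp9) and -0.14 (Casp2). The 95% intervals of Casp8 and Casp9, -0.13 to 0.55 and -0.18 to 0.45, leave out a change of 2-fold in either direction on the deposited scale. Casp2 and Casp6 reached 40 counts in 0 of 4 Low samples, so a difference from adult was not measurable at this depth.

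P-ERK1/2 High microglia against adult microglia gave 1 of 5 caspases called higher (Casp6) and 2 of 5 called lower (Casp8 and Casp9), beside 29.2% and 7.66% of all genes, and 5 of 5 did not overlap beside 50.3% of all genes. An unadjusted p under 0.05 was found for 5 of 5, beside 54.9% of all genes. This comparison shares its samples with the others, and is set beside them only as values. Casp8 was near the fold limit: it lost its call when any 1 of 6 of the 7 samples was left out, with log2 fold changes from -1.18 to -0.79 over the 7 fits, lowest in size without High sample 5. Casp6 and Casp9 kept theirs in all 7 of these fits but not under other scalings. Casp6 lost its call under median-of-ratios (0.72), quantile (0.74) and total scaling (-0.29), and Casp9 lost its own with the 6 most stable housekeeping genes (-0.53) and on unscaled counts (-0.41).

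The scaling between samples sets the zero of these comparisons. In High against Low the median of all 770 genes moved from -0.76 when samples were scaled to their total, through -0.11 (quantile), -0.01 (median of ratios) and 0.26 (deposited), to 1.02 with the 6 most stable housekeeping genes and 1.86 on unscaled counts. A factor per sample moves all its genes alike, so that the distance from this median is nearly fixed under such scalings by their construction. Relative to that median Casp6 was 0.51 to 0.61 higher under all 6. The difference from the median was -1.62 to -1.57 for Casp9, -1.60 to -1.54 for Casp4, -1.49 to -1.42 for Casp8 and -0.77 to -0.73 for Casp2. Subtraction of the negative-control level does not move all genes alike: Casp6 and Casp2 then lay above the median and Casp4, Casp8 and Casp9 below it. The sizes are not given for these distances, since remainders in Low were near 0 and were set to at least 1 count. On unscaled counts the log2 fold changes themselves were 1.13 for Casp2, 0.44 for Casp8, 0.31 for Casp4 and 0.29 for Casp9. Vimentin (Vim), an intermediate filament protein that caspases cut, alone held 14.1% to 23.9% of the counts in High and 4.4% to 5.3% in Low. A larger share of 1 gene lowers the rest under total scaling, but its part in the shift of the median was not tested. Whether caspase RNA per cell rose or fell cannot be told apart from these differences in RNA amount.

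**Figure D3:**
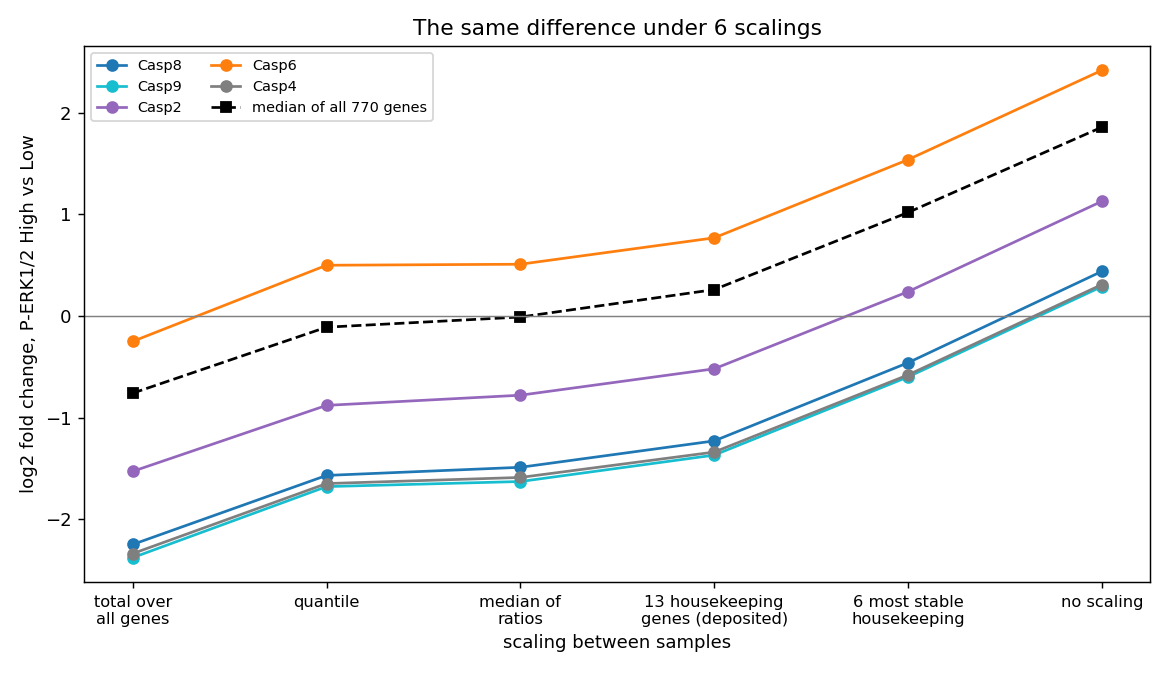
Log2 fold change of P-ERK1/2 High against Low for each caspase (lines) and the median of all 770 genes (dashed) under 6 scalings between samples. The lines run nearly parallel, as scaling by 1 factor per sample makes them: Casp2 crosses 0 with the 6 most stable housekeeping genes, Casp4, Casp8 and Casp9 on unscaled counts, and Casp6 crosses it under total scaling.

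Ratios of 2 caspases within a sample do not depend on its factor. Since probes differ in efficiency, only the change of a ratio between samples has a meaning, and background counts, which were not subtracted, pull ratios of low genes towards 1. Casp6 over Casp8 was -0.18, 1.31, 0.34 and 0.29 on the log2 scale in High, -1.74, -1.45, -1.64 and -1.47 in Low and -2.01, -1.63 and -1.48 in adult. High was apart from both other groups, which overlapped, and sample 5 was the highest. Casp6 over Casp9 was 1.03 to 2.36 in High, -0.81 to -0.43 in Low and -1.07 to -0.60 in adult, again with High apart. Casp8 over Casp9 differed less, with means of 1.13 (SD 0.10), 0.98 (SD 0.23) and 0.91 (SD 0.03) in the order High, Low, adult, and High overlapped Low but not adult (1.04 to 1.22 against 0.88 to 0.95). Casp4 over Casp8 overlapped between all groups, with means of -1.73 (SD 0.47), -1.60 (SD 0.36) and -1.69 (SD 0.08). Of the 10 pairs of caspases, 5 had ratios that were apart between High and Low, 6 between High and adult and 1 between Low and adult, where 48.6%, 50.7% and 35.0% of all 296065 pairs of genes did, so that the first 2 counts lie near the share over all genes. These ratios were chosen with the values known and carry no test.

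**Figure D4:**
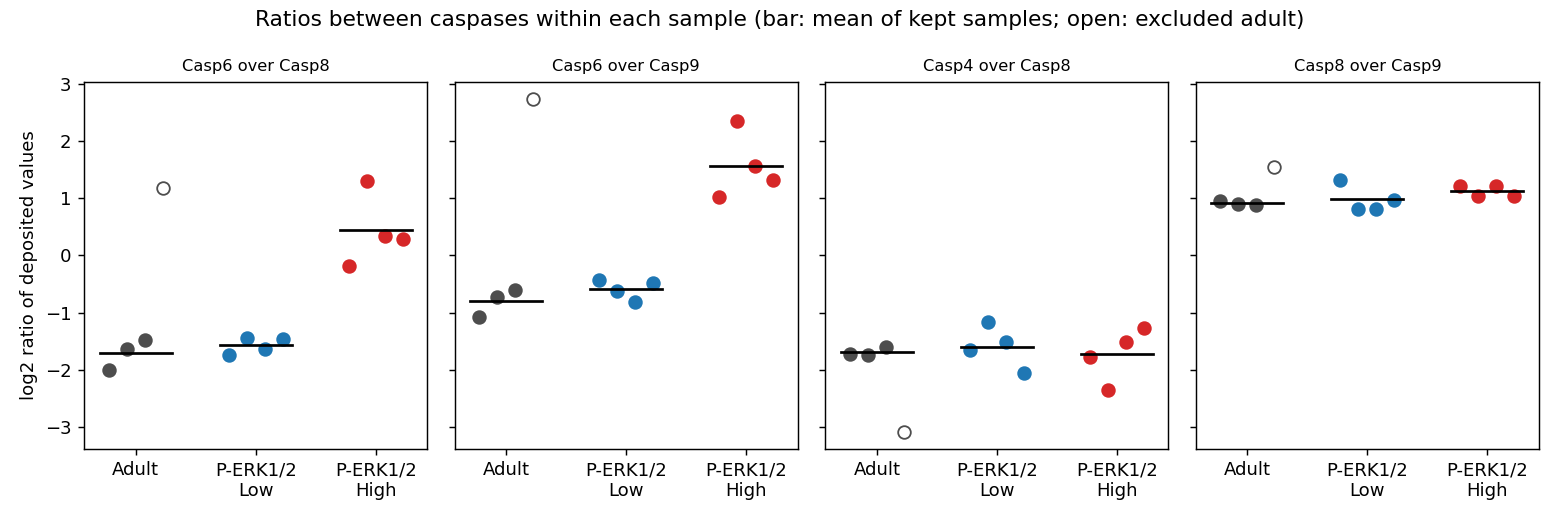
Log2 ratios of deposited values within each sample, with a bar at the mean of the kept samples and an open point for the excluded adult sample 11. Casp6 over Casp8 and Casp6 over Casp9 are highest in P-ERK1/2 High among the kept samples, while Casp8 over Casp9 stays between 0.81 and 1.32 in all 11 kept samples and the groups of Casp4 over Casp8 overlap.

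Over the 11 kept samples, the genes with the most similar profile were found by the root mean square difference of centred log2 values. For Casp8 these were Prkar1a (0.14), a regulatory subunit of protein kinase A, and Txnrd1 (0.15), a thioredoxin reductase, and for Casp9 Bin1 (0.14) and Rpl9 (0.15), against medians of 0.92 and 0.96 over all genes. Casp8 and Casp9 were each the 4th nearest gene of the other (0.16). Casp6 lay nearest to Pink1, a mitochondrial kinase, and Tmem206 (both 0.15, median 0.69). Casp4 lay nearest to Hmox1 (0.22) and Eed (0.25, median 1.04), and Casp2 to Apex1 (0.21) and Ifnar2 (0.22, median 0.69). For Casp4 the nearest of the other 4 caspases was Casp8, its 12th nearest gene (0.30), while for Casp6 it was Casp2, at 0.77 beyond the median gene.

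The genes that act around the caspases were read from 6 lists of 39 genes beside Casp1. In High against Low 9 of these 39 were called higher and 7 lower, beside 28.2% and 9.61% of all genes, with a median log2 fold change of 0.12 beside 0.26 over all genes. The counts of the single lists are to be read against the same shares. On the death receptor side, which leads to Casp8, 2 of 10 were called higher and 1 lower. Tnfrsf10b, the receptor for TRAIL, was 2.00 higher (mean 979 against 240 units), its ligand Tnfsf10 was 1.61 higher with 0 of 4 Low samples at 40 counts and a High mean (78.9 units) under the Low floor (135.2 units), which leaves no bound, and Tnf, which encodes another death receptor ligand, read -1.57 (443 against 1264 units). Cflar, which encodes the Casp8 inhibitor FLIP, read 0.96 (adjusted p = 0.0034), inside the fold limit, and the adaptors Fadd (-0.03) and Tradd (-0.74) were not called, with 0 of 4 Low samples at 40 counts.

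On the mitochondrial side, which leads to Casp9, 1 of 10 was called higher and 3 lower. The BH3-only genes Bbc3 (PUMA) and Bcl2l11 (BIM), which set off this route, read -1.97 and -1.85 and were called lower, as was Bok (-1.06), a pore former of the Bcl-2 family. For Bcl2l11 the level was at least 2.67-fold lower in High, where 0 of 4 samples reached 40 counts and 2 of 4 Low samples did. That bound holds at the deposited factors alone, since the fitted value ran from -2.85 to -0.2 over the 6 scalings, and the Low mean (117.9 units) lay under the floor of its own group (135.2 units). No sample of either group reached 40 counts for Bbc3, and 0 of 4 Low and 1 of 4 High samples did for Bok, so that no bound can be given for either. Cytochrome c (Cycs) read 1.58 on means of 42.4 and 12.8 units, with 0 of 4 Low samples at 40 counts and no bound. Bax (-0.85) and Bak1 (0.64), the pore formers of the outer mitochondrial membrane, were not called.

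Of the Bcl-2 guardians, which hold Bax and Bak1 in check, 3 of 4 were called lower: Bcl2a1a (-1.26), Bcl2l1 (-1.19) and Bcl2l2 (-1.16), while Bcl2 itself read 0.24, with 0 of 4 Low samples at 40 counts. Those 3, with Bok and Tnf, were the called neighbours of the caspases whose sign turned on unscaled counts (0.11 to 0.57). Of the caspase inhibitors 1 of 4 was called, Birc3 (cIAP2), which read 1.65, with fitted log2 values of 0.63 to 3.29 over the 6 scalings. With 0 of 4 Low samples at 40 counts, Birc3 was at least 2.17-fold higher at the deposited factors. Xiap, which binds Casp9 directly, read 0.73 (adjusted p = 0.0073). Of 7 substrates and fragmentation genes 3 were called higher, Vim (2.98), Hmgb1 (1.31) and Cideb (2.25), for which 0 of 4 Low samples reached 40 counts and no bound can be given, while the nuclear substrates Parp1, Lmna and Lmnb1 read 0.18, 0.04 and 0.02.

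Of the inflammatory partners 3 of 5 were called higher: Il1a (2.38), the inflammasome sensor Nlrp3 (1.37) and Casp1 (1.16). The fitted log2 value of Il1a ran from 1.36 to 4.02 over the 6 scalings. With 0 of 4 Low samples at 40 counts, Il1a was at least 3.07-fold higher at the deposited factors. Casp1, the caspase that matures interleukin-1 beta, read 403, 711, 244 and 513 in High, 176, 235, 182 and 189 in Low and 86.2, 120 and 151 in adult, with the groups all apart. The adaptor Pycard (-0.11) and Il1b (0.93) were not called, and 0 of 4 Low samples reached 40 counts for either.

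Against adult, P-ERK1/2 Low microglia had 4 of the 39 genes called higher and 1 lower, beside 8.05% and 2.73% of all genes. Tnf read 1.27, Lmnb1 1.24, Nlrp3 1.00 and Birc5 (survivin) 1.59, the last with 1 sample of each group at 40 counts, while Il1a read -1.17 and was at least 1.32-fold lower in Low at the deposited factors. High against adult gave 9 higher and 3 lower, beside 29.2% and 7.66% of all genes. The lower ones were Bcl2l2 (-1.08), Bcl2l11 (-2.03, at least 3.03-fold) and Bbc3 (-2.12, at least 2.06-fold, with 2 of 3 adult samples at 40 counts). The higher ones included Vim (3.48), Nlrp3 (2.37), Tnfrsf10b (2.28) and Cideb (1.67, at least 1.17-fold). These bounds again hold at the deposited factors, and the fitted log2 value of Cideb ran from 0.28 to 2.45 over the 6 scalings. Of all called, 4 turned sign under total scaling, namely Bak1, Hmgb1, Tnfrsf1a and Tnfsf10 (-0.05 to -0.40).

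**Figure D5:**
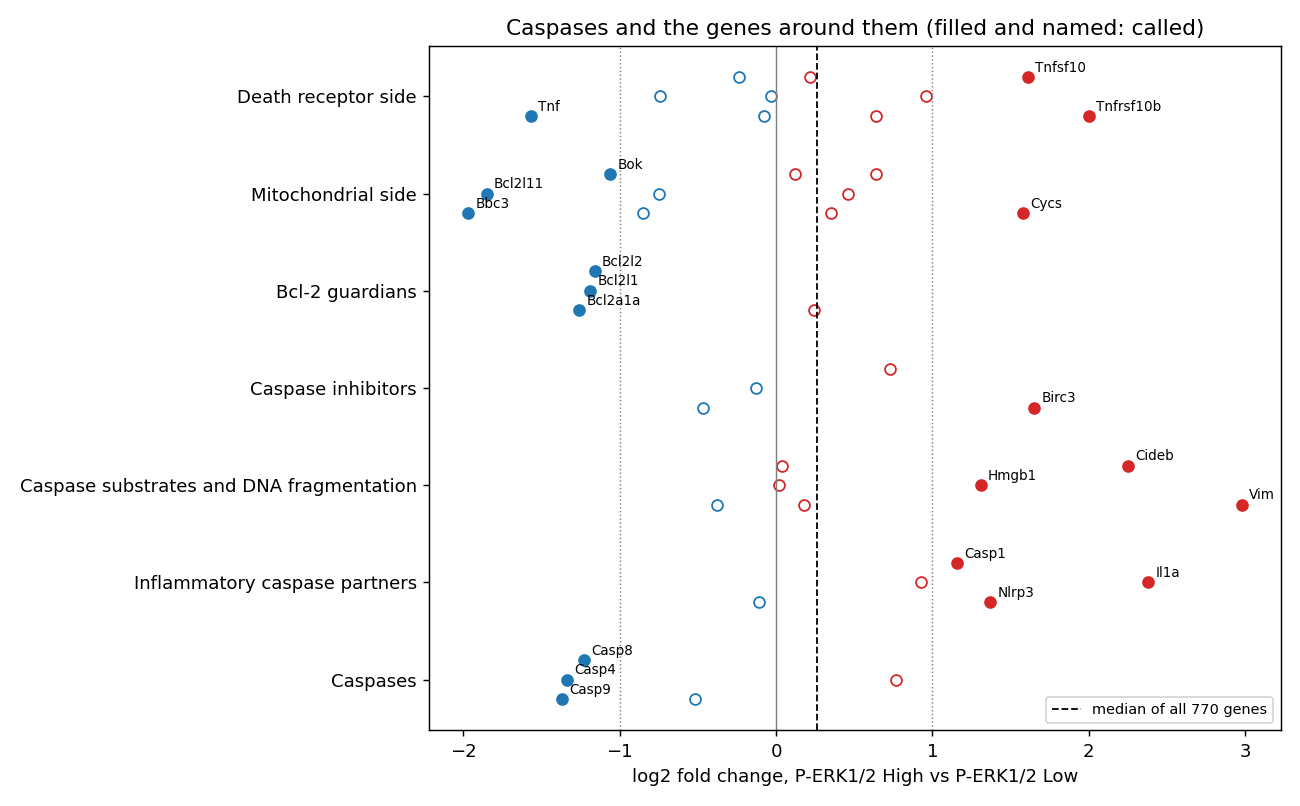
Log2 fold change of P-ERK1/2 High against Low for the caspases and the genes of 6 lists around them, with called genes filled and named, dotted lines at the fold limit and a dashed line at the median of all 770 genes (0.26). Bbc3, Bcl2l11, Bok, Tnf and 3 of 4 Bcl-2 guardians lie to the left with Casp8, Casp9 and Casp4, and 3 of 5 inflammatory partners, Tnfrsf10b and Birc3 to the right; on unscaled counts Casp8, Casp9, Casp4, the 3 guardians, Bok and Tnf lie to the right of 0.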

How the data were processed

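RNA of sorted microglia was measured in 12 samples on the NanoString nCounter Neuroinflammation panel. In nSolver (version not stated), the authors multiplied each count by 1 factor per sample to give the deposited signal, without subtracting background.

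Dividing by the value of 1 count gave whole counts (within 0.1) for 100% of gene values not listed at 1. All 770 genes were kept, and limma 3.58.1 (R 4.3.3) was fitted to log2(value + 1) over the 2 groups compared, so each fold change is on that scale. A call needed an unadjusted p below 0.01 and more than 1 log2 unit, and p-values were adjusted by Benjamini-Hochberg. Nothing beyond the pooled mice shows that samples were separate animals, so p-values measure the spread between these samples. The precision rests on 20 to 293 counts per caspase in the kept samples. A floor of 40 counts was set, and a fold against a group with no sample at it is given as a bound against that floor at each sample's factor where the other group's level allows one, and otherwise only the fitted value is given. The test was checked on simulated data. Alternatives were other pseudocounts, a filter, 5 scalings, other tests and thresholds, samples left out, and adult sample 11 added. A negative-control subtraction, limma-voom and a negative-control floor were added after seeing the data.

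Some genes that fit the symbol rule are not reported here, and counts over caspases leave them out. The caspases, gene lists and markers were chosen with earlier results of these data known. Named genes are the 5 caspases, the 2 nearest profiles of each, Casp1, called members of the lists (up to 4 of each by size), those at the end of a stated range, and other list members given for their role after their values were seen. All symbols matched RefSeq, 763 as current names and 7 as synonyms.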

Additional observations from a re-analysis of the deposited data

Results flagged for a closer look

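In the 15 groups of 4 samples tested over the 5 caspases, 3 held a sample whose gap to the nearest other exceeded Dixon's 95% critical share of the group's range, and chance gives about 1 in 20. These were all in adult sample 11, the one excluded by the authors. There Casp4 read 10.08 where the other adult samples read 84.0 to 88.5, Casp6 read 197.02 where they read 72.6 to 92.0, and Casp9 read 29.47 where they read 138 to 153. For all 5 caspases sample 11 lay outside the range of the kept adult samples, and for 3 of 5 it lay inside the range of P-ERK1/2 High. Its positive controls summed to 8633 counts, against 33391 to 54417 in the kept samples, and its genes to 1464449 counts. The cause was not tested.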

How the results depend on the processing

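The number of caspases called in P-ERK1/2 High against Low was 3, and 1 with the 6 most stable housekeeping genes (Casp6) and with a gene-by-gene test with unequal variances (Casp9). The same 3 (Casp4, Casp8 and Casp9) were called with an adjusted p and the fold limit, a pseudocount of 0.1, the filter on low values, median-of-ratios, quantile, a shared spread and limma-voom. Some settings gave a like number but other calls: no fold limit added Casp6, unscaled counts called Casp2 and Casp6 higher, the negative-control subtraction Casp2 and Casp6 higher and Casp8 lower, total scaling Casp2, Casp4, Casp8 and Casp9 lower, and a pseudocount of 20 Casp8 and Casp9 lower. Leaving out 1 sample gave 1 to 3, lowest without P-ERK1/2 High sample 5. Against adult it was 3, with other members under median-of-ratios (Casp2, Casp8 and Casp9 lower) and under quantile and total scaling (Casp2, Casp4, Casp8 and Casp9 lower), so that Casp6, the 1 higher call, was lost under these 3 scalings. It was 1 with a pseudocount of 20 (Casp9), and with the 6 housekeeping genes, unscaled counts, the gene-by-gene test and the negative-control subtraction (Casp6), and 0 with sample 11 added, with 2 to 3 on leaving out 1 sample. In P-ERK1/2 Low against adult it was 0 under every setting run. The gene-by-gene test called 189, 54 and 173 genes at the same thresholds in P-ERK1/2 High against Low, P-ERK1/2 Low against adult and P-ERK1/2 High against adult, where limma called 291, 83 and 284, while sample 11 added gave 34 and 49 in the 2 comparisons with adult and unscaled counts 596 and 240 in the 2 with Low. Total scaling gave 59 higher and 313 lower of all genes in the first comparison, and unscaled counts 595 and 1, where the deposited scale gave 217 and 74. For Low against adult these were 24 and 59, 8 and 232, and 62 and 21, and for High against adult 40 and 362, 347 and 2, and 225 and 59. With an adjusted p under 0.05 and no fold limit, 201 genes passed in Low against adult.

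Signs turned as follows, and the cause was not tested. In P-ERK1/2 High against Low, unscaled counts gave 1.13 (Casp2), 0.31 (Casp4), 0.44 (Casp8) and 0.29 (Casp9), total scaling -0.25 (Casp6), the 6 housekeeping genes 0.24 (Casp2) and the subtraction 2.21 (Casp2). In P-ERK1/2 Low against adult, unscaled counts gave -0.54 (Casp4), -0.50 (Casp6), -0.64 (Casp8) and -0.71 (Casp9), total scaling -0.09 (Casp4), -0.04 (Casp6), -0.18 (Casp8) and -0.25 (Casp9), the subtraction -0.09 (Casp4), -1.06 (Casp6) and -0.40 (Casp9), median-of-ratios -0.01 (Casp9), quantile -0.05 (Casp8) and sample 11 added 0.01 (Casp2), while Casp2 ran from -0.25 to 0.00 on leaving out 1 sample. In P-ERK1/2 High against adult, Casp2 read 0.04 with the 6 housekeeping genes, 0.15 unscaled and 0.07 after subtraction, and Casp6 read -0.29 with total scaling. The other settings kept every sign.

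Of 55 caspase values in kept samples, 39 reached 40 counts and 55 reached 20, and 47 exceeded the negative controls. The planned count model was not run, and limma-voom on the recovered counts was run in its place. No paired analysis was possible because sample numbers are not shared between groups and the sources used here do not tell which P-ERK1/2 High and Low samples came from the same mice.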
